A study of Cyanidioschyzon merolae strain 10D with 6 samples.

Results

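Interior DNA transposon copies of the red alga Cyanidioschyzon merolae are described here, other than those of the Harbinger and TcMar-ISRm11 families. They were chosen from the deposited annotation of transposable elements (TEs) by position and class alone. A copy was taken if it lay on a nuclear chromosome, was assigned to the DNA class, belonged to neither of those families and lay at least 20000 bp from both ends of its chromosome. The rule took 598 of 5074 annotated TE copies. They fell into 16 superfamilies and 118 repeat families, of which 93 held a single member. Not all members are separate loci. TE_struc_75 (chromosome 20, 653360-658095) and TE_struc_76 (653361-658094), for example, cover almost the same stretch and count as separate members and families. By superfamily there were 268 TcMar copies, 122 of an unknown DNA family, 46 Mutator, 39 DTM, 38 TcMar-Tigger, 32 DTC, 26 hAT and 12 Helitron copies. MULE-MuDR had 4 copies and CMC-EnSpm and PIF-Harbinger had 3 each. Kolobok-H, Academ-H, DTT, Zisupton and DTA had 1 each.

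Poly(A) RNA was sequenced from 3 libraries of wild-type strain 10D and 3 of the mutant line Cme(z)-1, which lacks function of Polycomb Repressive Complex 2 (PRC2). Both groups grew in liquid MA2 medium at a pH between 2.5 and 3.0 and a temperature of 42 °C, aerated with ambient air and lit without a break with white light (80 µmol/m2/s). The titles name a single mutant line and do not say whether replicates were separate cultures, so other traits of the line cannot be told apart from the loss of PRC2, and the p-values measure a spread between samples that may be technical. Libraries held 7860491 to 10754544 counts over genes and TE copies. Counts of CMQ156C, the gene of the catalytic subunit E(z), were 1776, 1533 and 1770 in wild type and 0 in each mutant library.

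DNA transposons move as DNA: a transposase binds the terminal inverted repeats of an element, cuts it out and joins it elsewhere. TcMar copies belong to the Tc1/mariner superfamily. Mutator, MULE-MuDR and DTM name the Mutator group, DTC and CMC-EnSpm the CACTA group, and hAT and DTA the hAT group, while Helitrons move by rolling-circle replication. PRC2 methylates a lysine of histone H3, a mark of silent chromatin that in several unicellular eukaryotes and algae also covers transposable elements.

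Few of these copies changed in the mutant, and most of those that rose belonged to a single TcMar repeat family, rnd-1_family-1. Of the 598 copies 271 had enough counts to be tested. In edgeR's quasi-likelihood test with Benjamini-Hochberg adjustment over all genes and TE copies, 9 rose, 1 fell and 261 did not pass an adjusted p of 0.05. Among all 2776 tested TE copies 7.1% rose and 1.04% fell, and among all 7641 tested genes and TE copies 3.4% rose and 1.54% fell, so the members' share of rises lay below that of TE copies at large and close to that of all rows. DESeq2 called 17 that rose and 4 that fell, and edgeR called 2 that rose when wild-type replicate 1 was left out and 5 when mutant replicate 2 was. The shares of all TE copies called in those runs were not counted, so the comparison of shares holds for the main fit alone. The fall was called in the run without mutant replicate 3 and in none of the other leave-one-out runs. The median fitted log2 fold change (mutant over wild type) of the members was 0.087, beside 0.067 for all TE copies and -0.011 for all rows. Fitted values were above 0 for 174 members and below 0 for 97. All 3 mutant libraries lay above all 3 wild-type libraries for 42 members and below them for 21, and the groups overlapped for the other 208. For all tested TE copies these shares were 19% above and 8.18% below.

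The 327 members that were not tested had low counts or none. Of these 83 had no count in any library, and the other 244 reached at most 66 counts in a library. Among them 14 had every mutant library above every wild-type one, 10 of these being TcMar copies, and 4 had every mutant library below. The highest mutant mean of the 14 was that of TE_homo_3058 (rnd-1_family-56, chromosome 15, 810320-810485), which had 0 counts in each wild-type library and 10, 28 and 27 in the mutant. Its mutant level of 2.28 ± 1.25 CPM (SD, n = 3) was at least 6.22-fold higher than 3 counts per wild-type library. It passed the test when the low-count filter was dropped or replaced by 10 counts in every library of a group, and was then called raised.

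**Figure D1:**
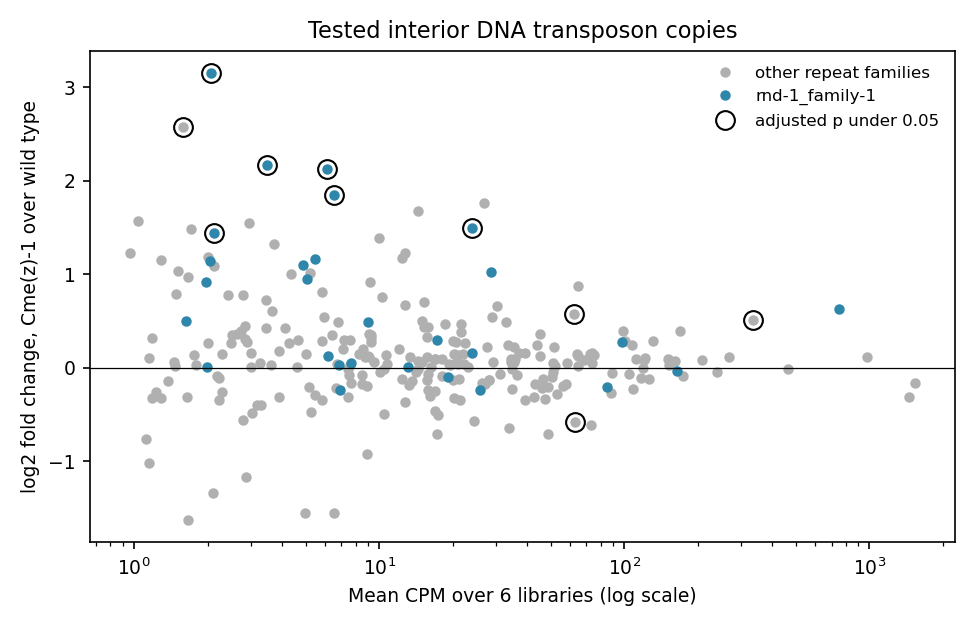
Fitted log2 fold change (mutant over wild type, y axis) against mean CPM over 6 libraries (x axis, log scale) for the tested members, with called copies marked. The 9 copies that rose span log2 changes from 0.51 to 3.15, and the 1 that fell lies at -0.58.

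The rises lay in the TcMar, DTM and DTC superfamilies. Of 111 tested TcMar copies 7 (6.31%) rose and 0 fell, with a median log2 fold change of 0.16, a share near the 7.1% of all tested TE copies that rose. Of 29 tested DTC copies 1 rose, and of 32 tested DTM copies 1 rose, with medians of 0.095 and -0.050. Of 55 tested copies of the unknown DNA family 1 fell, with a median of 0.061. No copy was called among 15 Mutator, 10 Helitron, 9 hAT and 8 TcMar-Tigger copies tested, nor for the single tested copies of DTA and MULE-MuDR. No copy of the other 6 superfamilies was tested.

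Summed over its copies, no superfamily was called. Of the 10 superfamilies tested 0 rose and 0 fell in edgeR's quasi-likelihood test, an unadjusted p under 0.05 was reached by 0, and both DESeq2 and limma voom called 0. Among all 41 tested sums of TE superfamilies by location 9.76% rose and 0% fell. The TcMar sum was 2534, 2831 and 2639 CPM in wild type and 3180, 3372 and 3041 CPM in the mutant. Every mutant library lay above every wild-type one, as for 2 of the 10 superfamily sums and for 29.3% of all TE sums of this kind. The log2 fold change was 0.29 (SE 0.15, adjusted p = 0.41). Mutator elements had the highest sum, 3733 ± 600 CPM in wild type and 3210 ± 940 CPM in the mutant (SD, n = 3), and their groups overlapped.

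DTC elements stood at 2357 ± 111 CPM in wild type and 2620 ± 344 in the mutant. Helitrons had 1993, 1896 and 1731 CPM in wild type and 1908, 2125 and 1990 in the mutant. DTM elements were at 1095 ± 35.5 and 1084 ± 107 CPM, the unknown DNA family at 955 ± 50.5 and 975 ± 91.0, and hAT elements at 129 ± 16.5 and 134 ± 5.04. The groups overlapped for each of these sums. The single DTA copy, TE_struc_62, had 256 ± 5.27 CPM in wild type and 277 ± 13.7 in the mutant, with every mutant library above, a log2 fold change of the sum of 0.14 and an adjusted p of 0.51 (edgeR). TcMar-Tigger elements were at 102 ± 13.5 CPM in wild type and at 108, 19.7 and 79.8 CPM in mutant replicates 1, 2 and 3, so mutant replicate 2 stood apart. MULE-MuDR elements were at 33.8 ± 3.21 and 35.2 ± 4.45 CPM.

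**Figure D2:**
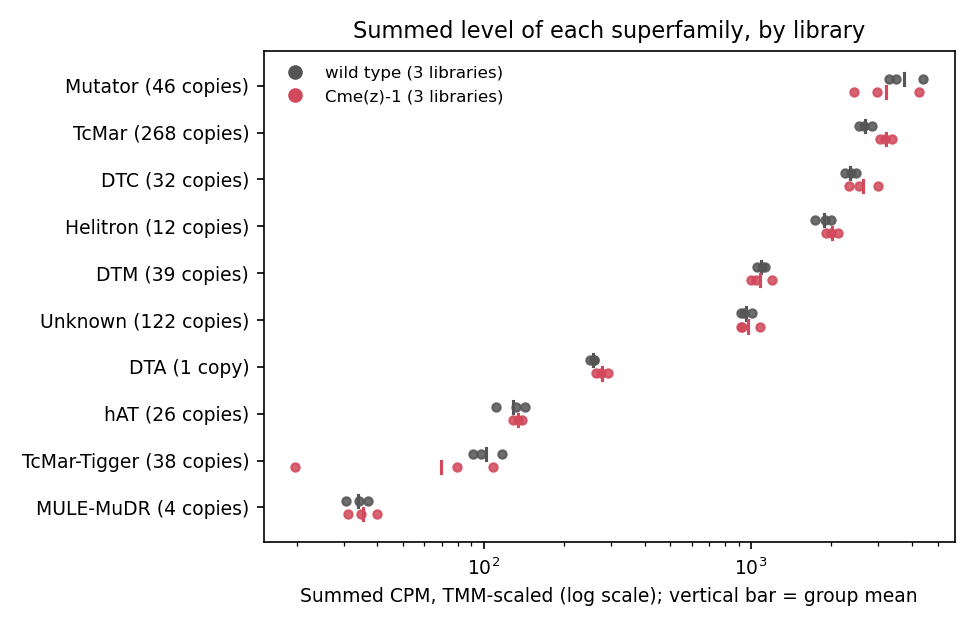
Summed level of each superfamily (CPM over TMM-scaled library sizes, log axis) in the 3 wild-type and 3 mutant libraries, 1 point per library. The TcMar points of the mutant, 3041 to 3372 CPM, all lie above those of wild type, 2534 to 2831 CPM, and mutant replicate 2 stands apart for TcMar-Tigger at 19.7 CPM.

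The members took 1.27%, 1.25% and 1.36% of all counts in wild type and 1.31%, 1.55% and 1.30% in the mutant. The means of 1.29% ± 0.0563 and 1.39% ± 0.139 (SD, n = 3) differed by 0.0923 percentage points, less than the spread of the mutant libraries, with p = 0.4 in a two-sided exact permutation test whose smallest possible p is 0.1. As a share of TE counts the members fell on the other side, at 14.0% ± 0.450 in wild type and 13.1% ± 0.323 in the mutant (two-sided exact permutation p = 0.1, n = 3 per group). All 3 mutant libraries lay below all 3 wild-type libraries on that scale.

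The repeat family rnd-1_family-1 held 37 members on 16 chromosomes. Of its 28 tested copies 6 (21.4%) rose, each on a different chromosome, 0 fell and 22 were not called. Among all tested TE copies 7.1% rose and 1.04% fell. Fitted changes were above 0 for 23 of the 28 copies and below 0 for 5. Their median log2 fold change was 0.49, with a range from -0.24 to 3.15. The mutant libraries lay above the wild-type libraries for 14 copies and below for 0, beside 19% and 8.18% of all tested TE copies. At an unadjusted p under 0.05, 13 copies were higher and 0 lower. Over all 271 tested members, this family included, 31 were higher and 15 lower. The share over all TE copies was not counted. The remaining 243 tested members held 3 rises and 1 fall, with a median of 0.071. Raised copies of the family numbered 2 when wild-type replicate 1 was left out and 3 when mutant replicate 1 or 2 was. The difference between this family and the other members was not itself tested.

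TE_homo_1337 had the largest fitted rise of the 271 members tested, which do not include TE_homo_3058 with its 0 counts in wild type. It is a copy of 2652 bp on chromosome 9 (28305-30956, plus strand), 28304 bp from the chromosome's start. It had 3, 3 and 4 counts in wild type and 39, 33 and 38 in the mutant. The groups lay far apart relative to their spread, at 0.408 ± 0.0884 and 3.72 ± 0.240 CPM (SD, n = 3). The log2 fold change was 3.15 (SE 0.39, adjusted p = 0.0018, edgeR). With so few wild-type counts, the ratio of summed counts was 9.13 with a 95% counting interval of 4.78 to 19.6. The neighbouring genes CMI007C, 4751 bp to the left, and CMI012C, 995 bp to the right, were not called.

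TE_homo_313 (chromosome 3, 170826-173473, minus strand) had 11, 11 and 9 counts in wild type and 81, 54 and 33 in the mutant. The mutant libraries differed among themselves by more than 2-fold but all stood above wild type. The log2 fold change was 2.17 (SE 0.42, adjusted p = 0.018, edgeR). TE_homo_314, a TcMar-ISRm11 copy, overlaps TE_homo_313 over 578 bp. It had 72.3 ± 32.0 CPM in wild type and 109 ± 21.3 in the mutant and was not called. TE_homo_1294 (chromosome 8, 560586-561547, plus strand) had 11, 23 and 21 counts in wild type and 80, 117 and 88 in the mutant. Its groups did not overlap either, and the log2 fold change was 2.12 (SE 0.41, adjusted p = 0.018, edgeR). TE_homo_987 (chromosome 7, 158179-160692, plus strand) had 20, 28 and 21 counts in wild type and a narrow 104, 93 and 104 in the mutant. Its level went from 2.82 ± 0.702 to 10.2 ± 0.908 CPM (SD, n = 3), a log2 fold change of 1.85 (SE 0.28, adjusted p = 0.0053, edgeR). TE_homo_986, also of TcMar-ISRm11, overlaps it over 143 bp and was not called.

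TE_homo_4791 (chromosome 20, 1270115-1272765, minus strand) had the highest level of the raised copies of this family. It had 8.78, 10.4 and 18.5 CPM in wild type and 34.4, 23.2 and 47.9 CPM in the mutant. The lowest mutant library, replicate 2, lay just above the highest wild-type library, replicate 3. The log2 fold change was 1.49 (SE 0.34, adjusted p = 0.042, edgeR). TE_homo_2822 (chromosome 14, 688792-689859, minus strand) had 11, 8 and 9 counts in wild type and 30, 30 and 31 in the mutant. Replicates were close in both groups, and the log2 fold change was 1.44 (SE 0.34, adjusted p = 0.048, edgeR).

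How firmly these calls stood differed between the copies. With each library left out in turn, TE_homo_1337 and TE_homo_987 passed in all 6 runs, with edgeR adjusted p-values of at most 0.016 and 0.034. TE_homo_1294 did not pass without wild-type replicate 1 (adjusted p = 0.066) or mutant replicate 2 (0.053). TE_homo_313 did not pass without wild-type replicate 1 (0.092) or 3 (0.061) or mutant replicate 1 (0.087) or 2 (0.061). TE_homo_4791 did not pass without wild-type replicate 1 (0.17) or 2 (0.11) or mutant replicate 1 (0.11) or 3 (0.11). TE_homo_2822 passed in 0 of the 6 runs, with adjusted p-values from 0.11 to 0.17. All kept their direction in every run.

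**Figure D3:**
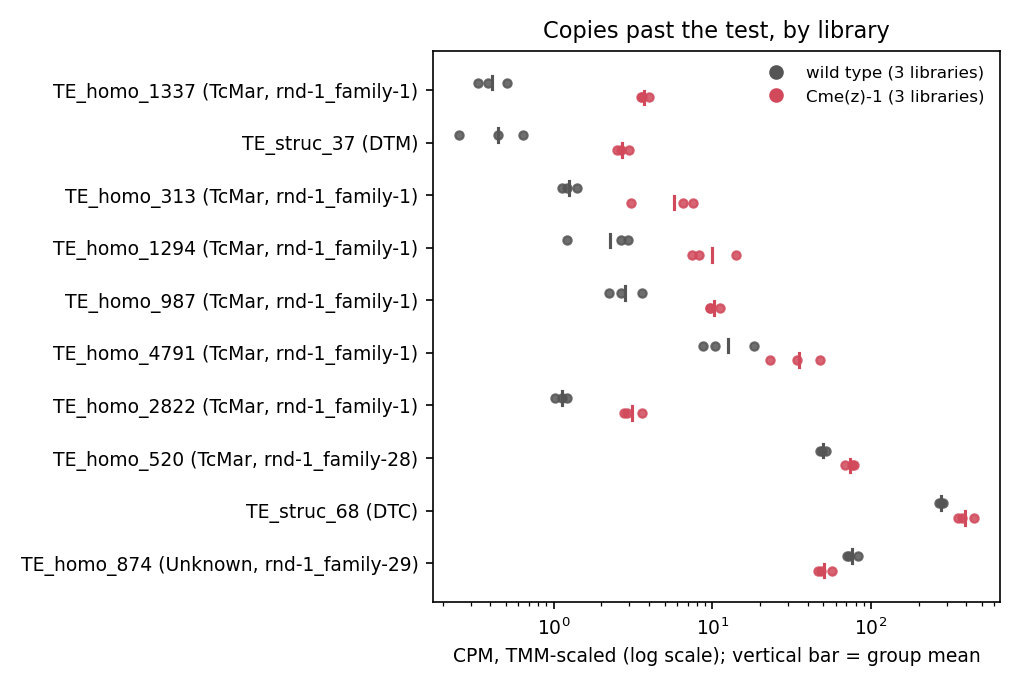
Level of each called copy (CPM, log axis) in the 3 wild-type and 3 mutant libraries, with vertical bars at group means. For all 10 copies the groups do not overlap, and the spread among mutant libraries is widest for TE_homo_313, TE_homo_1294 and TE_homo_4791.

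A further 8 copies of rnd-1_family-1 had all mutant libraries above wild type without passing the test. The copy that carried most of the family's counts was TE_homo_2204 (chromosome 12, 374743-377385, minus strand), with 4548, 5488 and 4430 counts in wild type and 10190, 7690 and 9153 in the mutant. These are 590 ± 103 and 910 ± 49.5 CPM (SD, n = 3), a log2 fold change of 0.63 (SE 0.15, adjusted p = 0.052, edgeR). This copy passed under DESeq2, under scaling by total counts, under other low-count filters and without wild-type replicate 2 (adjusted p = 0.022), so its call turned on those choices. A Harbinger copy, TE_homo_2205, overlaps TE_homo_2204 over 1651 bp, at 5.26 ± 2.34 CPM in wild type and 8.35 ± 2.93 in the mutant. TE_homo_2965 (128, 218 and 111 counts against 405, 359 and 357) had a log2 fold change of 1.02 and an adjusted p of 0.075. TE_homo_2965 was called under DESeq2, limma voom, total-count scaling, the replicate block and without wild-type replicate 2. TE_homo_2626 (22, 25 and 29 counts against 62, 53 and 84) had a log2 fold change of 1.10 and an adjusted p of 0.071, and was called under DESeq2. The other 5 of these copies, TE_homo_1283, TE_homo_1818, TE_homo_3926, TE_homo_4023 and TE_homo_4531, had log2 fold changes from 0.27 to 1.16 and adjusted p-values from 0.12 to 0.33 (edgeR). Of these TE_homo_1283 was called under DESeq2 and without wild-type replicate 2.

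Tested copies of the family of 2500 bp or longer had a median log2 fold change of 0.79, with 4 of 14 tested called, and shorter ones a median of 0.22, with 2 of 14 called. The 6 raised copies together held 20.4 ± 5.80 CPM in wild type and 67.8 ± 6.64 in the mutant. The whole family stood at 1126 ± 117 CPM in wild type and 1534 ± 61.9 in the mutant, with every mutant library above. This sum had a log2 fold change of 0.47 (SE 0.14, adjusted p = 0.14, edgeR) and was not called, while DESeq2 called it (adjusted p = 0.0022). TE_homo_2204 held 56.4% of it. Without that copy the sum was 536 ± 17.3 and 625 ± 21.0 CPM, with a log2 fold change of 0.25 and an adjusted p of 0.33 (edgeR). The 9 untested copies summed to 2.35 ± 0.932 and 3.95 ± 0.675 CPM. Reads of near-identical copies could have been split between them by the counting, so the level of a single copy is less certain than the sum.

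**Figure D4:**
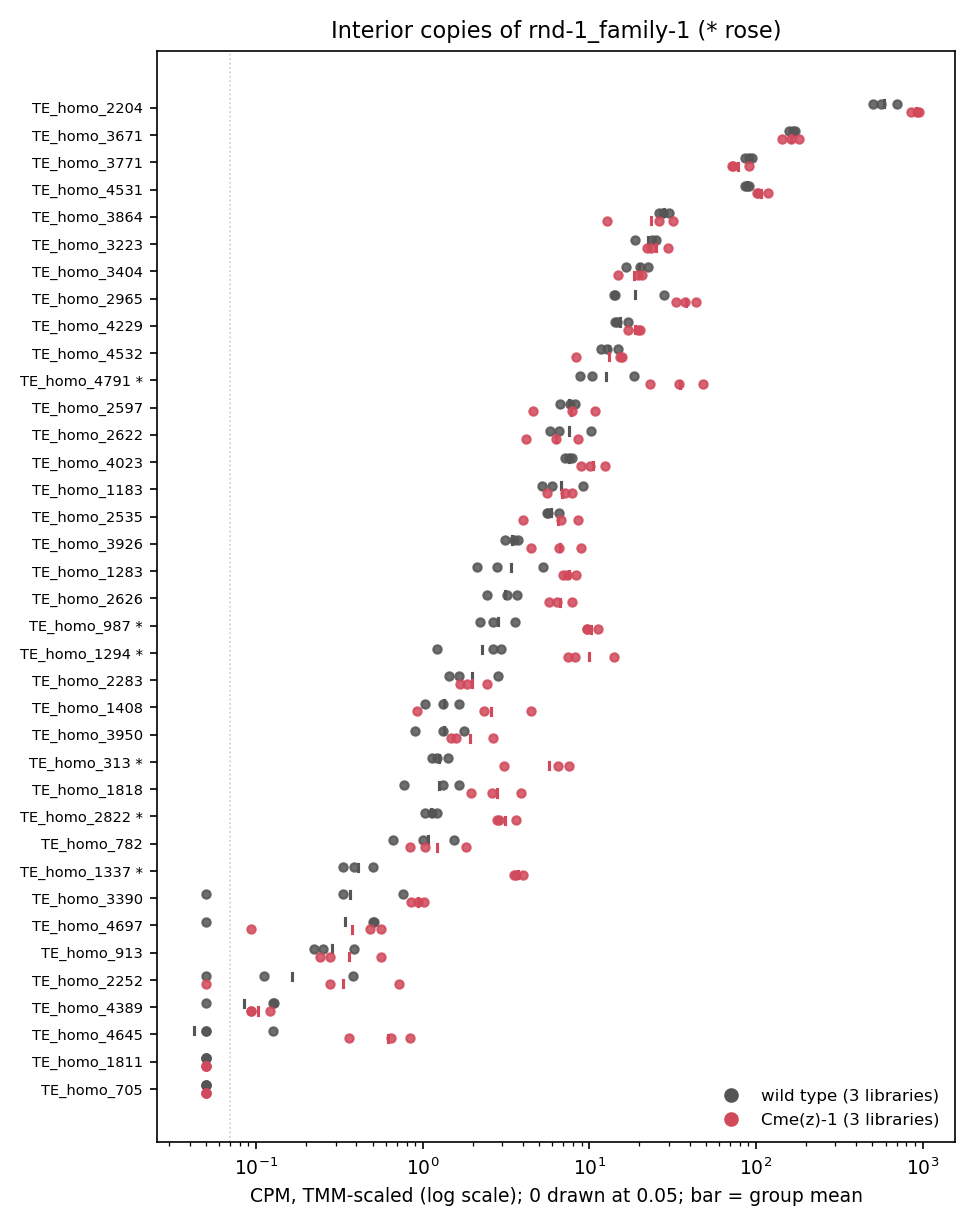
Level of each of the 37 interior copies of rnd-1_family-1 (CPM, log axis, 0 drawn at 0.05) in the 3 wild-type and 3 mutant libraries, ordered by wild-type mean, with bars at group means and asterisks on the 6 raised copies. By wild-type mean, 5 of 9 tested copies under 3 CPM rose and 1 of 19 at 3 CPM or more. That difference was not tested and is partly set by the count filter. A copy with few wild-type counts, such as TE_homo_1337 at 3, 3 and 4, was tested only if its mutant counts were high. The highest copy, TE_homo_2204, which is not among the raised, goes from 590 to 910 CPM.

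The same family also has copies near the chromosome ends. Outside the members, 16 copies of rnd-1_family-1 lay within 20000 bp of an end, and of 7 tested there 4 rose, with a median log2 fold change of 3.43. The difference from interior copies was not tested. Over all 50 DNA transposon copies of the kinds described here within that distance, those of rnd-1_family-1 included, 9 of 28 tested rose and 0 fell. Among all tested TE copies 7.1% rose and 1.04% fell. The share among TE copies of every kind near the ends was not counted, so these rises cannot be called particular to the copies described here. At the boundary of the rule, the nearest members inside it were TE_homo_2344 and TE_homo_390, both with 0 counts in all libraries, and TE_homo_2863 at 22408 bp, with 7, 14 and 12 counts in wild type and 25, 20 and 42 in the mutant. The nearest copies outside were TE_homo_1833 at 19533 bp, TE_homo_2618 at 19667 bp and TE_homo_3079 at 19905 bp, with mean CPM of 3.35, 7.45 and 0.867 in wild type and 4.13, 9.46 and 0.779 in the mutant. Of members within 40000 bp of an end 1 of 17 tested rose, and of those farther away 8 of 254 rose and 1 fell.

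Copies of rnd-1_family-1 mostly sat just upstream of genes. Of the 36 that overlapped no gene, 29 (80.6%) had on their 3′ side a gene on the same strand, and for 25 (69.4%) it began within 500 bp. The median gap to the gene on the 3′ side was 156.5 bp, against 2725.5 bp on the 5′ side. Of the 423 stranded members outside the family that overlapped no gene, 44.0% had a same-strand gene on the 3′ side and 5.44% had it within 500 bp. Of 4001 nuclear TE copies outside the members, these shares were 59.2% and 21.5%. The position was not particular to rnd-1_family-1. In rnd-1_family-4 (TcMar), TE_homo_178, TE_homo_765, TE_homo_1005, TE_homo_1192 and TE_homo_2766 had such a gene at gaps of 52, 241, 117, 20 and 17 bp. The share over all copies of rnd-1_family-4 was not counted. Among the 6 raised copies of rnd-1_family-1, 5 had such a gene within 500 bp.

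None of the same-strand genes within 500 bp downstream of rnd-1_family-1 copies was called. All 25 were tested, and 0 rose and 0 fell in edgeR's quasi-likelihood test, where among all 4865 tested genes 1.29% rose and 1.83% fell. Their log2 fold changes ran from -0.70 to 0.18 with a median of -0.073. The lowest value was that of CMT504C, 159 bp downstream of TE_homo_4791, with 14891, 9823 and 18722 counts in wild type and 11625, 9825 and 10596 in the mutant. Scaled to library size every mutant library lay below wild type, at 1085 ± 100.3 against 1761 ± 560 CPM (SD, n = 3), and the adjusted p was 0.14 (edgeR). Genes beside the other raised copies of the family, CMC072C, CMH218C, CMG056C and CMN276C, had log2 fold changes of -0.12, -0.052, -0.018 and -0.21.

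**Figure D5:**
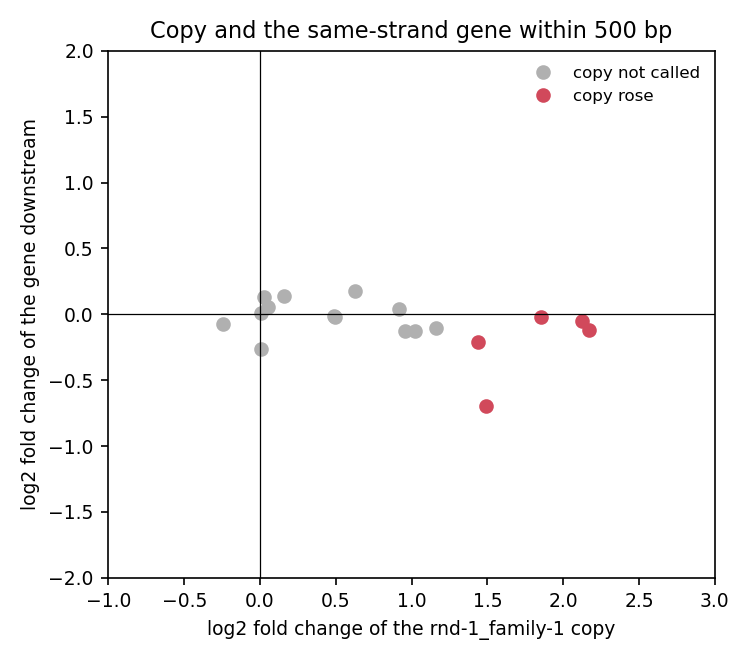
Log2 fold change of the same-strand gene within 500 bp on the 3′ side (y axis) against that of the rnd-1_family-1 copy (x axis) for the 18 tested pairs, with raised copies marked. Copies range from -0.24 to 2.17 and genes from -0.70 to 0.18, and 0 of the genes was called.

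Outside rnd-1_family-1 3 copies rose. TE_struc_37, a DTM copy of 3470 bp with no other member in its repeat family (chromosome 13, 763842-767311), had 4, 5 and 2 counts in wild type and 27, 22 and 32 in the mutant. Both groups were low and well apart, at 0.446 ± 0.195 and 2.72 ± 0.243 CPM (SD, n = 3). The log2 fold change was 2.57 (SE 0.43, adjusted p = 0.0098, edgeR), and the ratio of summed counts was 6.11 with a 95% counting interval of 3.24 to 12.7. Without wild-type replicate 1 its adjusted p was 0.061. A member of the TcMar superfamily annotated inside it, TE_homo_2585, had 0 counts in all libraries. TE_struc_37 also holds a Gypsy copy, TE_homo_2586, and is abutted by Gypsy copies on both sides. Of these TE_homo_2583 rose, while TE_homo_2587 had 15.6 ± 1.08 CPM in wild type and 13.0 ± 5.08 in the mutant and was not called. The DTM name is that of the annotation and was not tested.

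TE_homo_520, a TcMar copy of rnd-1_family-28 (chromosome 4, 360478-361066, minus strand), had 431, 408 and 391 counts in wild type and 820, 645 and 733 in the mutant. Its replicates were close, at 49.9 ± 2.28 and 74.2 ± 5.13 CPM (SD, n = 3), and the log2 fold change was 0.57 (SE 0.11, adjusted p = 0.016, edgeR). It did not pass without wild-type replicate 1 (0.11) or 3 (0.051) or mutant replicate 1 (0.090). Of 16 tested copies of its family it was the only one called, and the family sum went from 409 ± 23.4 to 449 ± 36.8 CPM with overlapping groups.

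TE_struc_68, a DTC copy (chromosome 18, 1153996-1157729), had 2486, 2210 and 2111 counts in wild type and 4061, 3688 and 3797 in the mutant. The mutant libraries all stood above, at 392 ± 47.9 against 276 ± 8.45 CPM (SD, n = 3), with a log2 fold change of 0.51 (SE 0.12, adjusted p = 0.042, edgeR). Leaving out any library but mutant replicate 3 brought its adjusted p to between 0.071 and 0.16. The gene CMR469C overlaps 18.0% of this copy, and without strand their reads cannot be told apart. That gene had a log2 fold change of 0.18 and was not called. Copia copies abut TE_struc_68 on both sides, TE_homo_4047 and TE_homo_4050, and neither was called. A Copia copy of 795 bp, TE_homo_4049, lies inside TE_struc_68. It had 343, 321 and 331 counts in wild type and 492, 0 and 384 in mutant replicates 1, 2 and 3. TE_struc_68 had its highest level, 446 CPM, in mutant replicate 2. Whether reads moved between these nested copies was not tested.

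The single fall was that of TE_homo_874, a copy of the unknown DNA family rnd-1_family-29 (chromosome 6, 385042-385698, plus strand). It had 749, 569 and 557 counts in wild type and 524, 384 and 606 in the mutant. Scaled to library size these were 75.6 ± 6.77 and 50.5 ± 5.29 CPM (SD, n = 3), and on that scale the groups did not overlap. The log2 fold change was -0.58 (SE 0.12, adjusted p = 0.030, edgeR). It passed when mutant replicate 3 was left out and failed without each of the other libraries, with adjusted p-values of 0.051 to 0.17.

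Some TE copies beside the raised members were raised too, and no neighbouring gene was called. The 9 raised copies had 19 genes that overlapped or flanked them, all tested, of which 0 rose and 0 fell. Among all tested genes 1.29% rose and 1.83% fell, so few calls or none would be due among 19. Of the 19 genes 1 had an unadjusted p under 0.05, and log2 fold changes lay between -0.70 and 0.36. Within 500 bp of the raised copies lay 18 other TE copies, of which 13 were tested and 5 rose, beside 7.1% of all tested TE copies. The 5 were all of the Gypsy family of retrotransposons. Beside TE_homo_1337 these were TE_homo_1335 (0.450 ± 0.160 CPM in wild type and 9.31 ± 2.11 in the mutant, log2 fold change 4.34) and the abutting TE_homo_1336 (0.291 ± 0.199 and 3.38 ± 0.537 CPM, log2 fold change 3.51). TE_homo_2583 abuts TE_struc_37 and had 5, 5 and 4 counts against 19, 30 and 36. TE_homo_1293 abuts TE_homo_1294 and had 11, 15 and 5 against 58, 68 and 55. TE_homo_521, 5 bp from TE_homo_520, had 99, 142 and 119 against 415, 329 and 385. Whether a read across such a border was counted for both copies is not given in the sources used here. A raised TE copy within 500 bp was present for 4 of the 9 raised members and for 10 of the 261 that were not called. Of these members 8 and 181 had a tested TE copy within that distance, and the difference was not tested. The raised neighbours TE_homo_1335, TE_homo_1336 and TE_homo_2583 had at most 5 counts in a wild-type library. They passed the count filter only through their mutant counts, which limits these comparisons.

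Genes that overlap or neighbour members were read against all tested genes, of which 1.29% rose and 1.83% fell. Of 155 genes overlapping a member 148 were tested, of which 0 rose and 1 fell, with a median log2 fold change of 0.0011. The gene that fell was CMI213C, at the edge of the Helitron TE_struc_18, at 583 ± 68.1 CPM in wild type and 328 ± 14.9 in the mutant (log2 fold change -0.83, SE 0.12, adjusted p = 0.0050, edgeR). Of 119 genes within 500 bp of a member without overlap 117 were tested, of which 1 rose and 2 fell, with a median of -0.0032. CMN016C rose from 1.89 ± 0.618 to 5.70 ± 1.59 CPM. CMO184C fell from 297 ± 29.3 to 148 ± 7.33 CPM and CMB094C from 65.3 ± 4.22 to 35.9 ± 3.09 CPM.

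By length and position the counts of calls were small. Of 95 tested members of 1000 bp or longer 7 rose, of 84 of at least 300 and under 1000 bp 2 rose and 1 fell, and of 92 shorter than 300 bp 0 rose and 0 fell. By distance, 5 of 58 tested members within 500 bp of a gene rose, 3 of 145 farther away rose, and 1 of 68 that overlap a gene rose. The 7.37% raised among members of 1000 bp or longer and the 8.62% among those within 500 bp of a gene were near the 7.1% of all tested TE copies, and differences between these classes were not tested. Since rnd-1_family-1 copies are long and lie close to genes, these counts are not independent of that family.

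Apart from the single-copy family of TE_struc_37, which repeats its own value, no repeat family was called as a sum by edgeR. Of 118 families 84 were tested, 22 of them with 2 or more copies, and 1 rose and 0 fell in edgeR's quasi-likelihood test, where among all 155 tested TE repeat-family sums 5.16% rose and 0% fell. Every mutant library lay above wild type for 11 of these sums and below for 5, beside 18.1% and 3.87% of all TE sums of this kind. At an unadjusted p under 0.05, 8 were higher and 3 lower, and DESeq2 and limma voom called 0 that fell. DESeq2 called 4 that rose, the sums of rnd-1_family-1 (adjusted p = 0.0022), rnd-1_family-4 (0.0081) and the single-copy families of TE_struc_37 (0.0011) and TE_struc_68 (0.0015). The median log2 fold change of the sums was 0.085, beside 0.10 for all TE sums.

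The highest family sum was that of rnd-6_family-9789, which has 2 members of 321 bp on chromosome 14. TE_homo_2750 (421297-421617, within gene CMN145C) had 13729, 10656 and 15715 counts in wild type and 13173, 17610 and 10820 in the mutant. TE_homo_2756 (439049-439369) had 13404, 10580 and 15790 in wild type and 13048, 13964 and 10651 in the mutant. The pair's counts were close to each other in every library but mutant replicate 2. Together they took between 16.4% and 29.5% of all member counts in a library, at 3241 ± 658 CPM in wild type and 2752 ± 949 in the mutant (log2 fold change -0.20, groups overlapping). They were also the highest members per length, at 5067 and 5029 CPM per kb in wild type.

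Helitron family TE_00000038 (5 copies) stood at 1305 ± 113 CPM in wild type and 1405 ± 52.6 in the mutant, a log2 fold change of 0.14. Its main copy, TE_struc_18 (chromosome 9, 555350-574619), spans 19270 bp, overlaps 9 genes over 41.3% of its length and had 937 ± 89.8 and 1011 ± 93.7 CPM. The unknown DNA family rnd-1_family-29, with 122 members, was at 955 and 975 CPM, and its highest copy, TE_homo_49, at 117 ± 23.1 and 124 ± 17.6. The most numerous family, rnd-1_family-39, has short members under both TcMar and Mutator. It was at 456 ± 15.2 CPM in wild type and 509 ± 39.4 in the mutant, with a log2 fold change of 0.19 and an adjusted p of 0.48 (edgeR), and 0 of its 40 tested copies were called.

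Among other families of 10 or more members, rnd-1_family-4 (TcMar) stood closest to a call as a sum. Its libraries had 27.7, 33.0 and 28.3 CPM in wild type and 43.7, 53.1 and 39.7 in the mutant. The groups did not overlap, and the log2 fold change was 0.65 (SE 0.16, adjusted p = 0.083, edgeR; 0.0081 with DESeq2). All 6 of its tested copies had a fitted value above 0, from 0.49 to 1.00, and 0 were called.

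The highest copies of the remaining superfamilies with at least 5 tested members overlapped between groups, with 1 exception. TE_struc_59 (DTC) had 466 ± 48.2 CPM in wild type and 462 ± 64.0 in the mutant, TE_struc_56 (DTM) 121 ± 13.4 and 113 ± 13.0, and TE_homo_3938 (hAT) 20.7 ± 2.44 and 21.2 ± 2.02. The exception was TE_homo_1440 (TcMar-Tigger, rnd-5_family-565, chromosome 9, 358086-358513), with 551, 473 and 476 counts in wild type and 638, 0 and 553 in mutant replicates 1, 2 and 3. Its log2 fold change of -0.70 (SE 0.91, adjusted p = 0.77, edgeR) rested on the library at 0. Such single zeros occurred in 5 members that had 50 or more counts in the other 5 libraries. They were TE_struc_16 in wild-type replicate 3, TE_homo_1197 in wild-type replicate 2, TE_homo_3998 in wild-type replicate 1, TE_homo_3574 in mutant replicate 1 and TE_homo_1440 in mutant replicate 2, and none of the 5 was called. TE_struc_16 lies inside another member, TE_struc_15, which had 9.56, 10.1 and 22.4 CPM in wild-type replicates 1, 2 and 3. Whether reads moved between nested copies was not tested.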

How the data were processed

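Values are raw whole-number read counts deposited by the authors, in 1 table per library over genes and single TE copies. The submitters' processing notes name Trim Galore and STAR. Which program counted reads, and what it did with multi-mapping ones, is not given in the sources used here, so the level of one copy among near-identical ones is uncertain. Libraries came from poly(A) enrichment and an unstranded kit, per the labels' protocols. Coordinates, counted from 1, come from the deposited gene annotation (build ASM9120v1, per the file headers) and the TE annotation, which has no header. No genome was used here, so no sequence is shown.

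Members, lists and tests were chosen with earlier results of these data known. The test was edgeR 4.0.16 (R 4.3.3) on these counts: filterByExpr (minimum count 10, minimum total 15), TMM scaling, glmQLFit and glmQLFTest, and Benjamini-Hochberg adjustment over genes and TE copies together, with calls at an adjusted p under 0.05. The fit also ran on sums per repeat family and per superfamily. CPM use TMM-scaled library sizes, and errors are SDs of 3 libraries. Count ratios carry exact 95% binomial intervals, which cover counting error only, as does the floor of 3 counts. The common biological coefficient of variation was 0.167. The script was tested on simulated data.

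Named were called copies without overlap of groups and at least 1 CPM in the higher group (up to 10 each way), the highest copy of each superfamily with at least 5 tested members, repeat-family sums that were called or among the 5 highest, and every superfamily. Other copies and families were named after their values were seen. Alternatives were median-ratio, total-count and nuclear-gene scaling, 2 other filters, DESeq2 1.42.0, limma voom (limma 3.58.1), the replicate block, each library left out, other distances from an end, copies near genes left out and other denominators. No 2 libraries were counted as 1, since chi-square per degree of freedom within groups was at least 16.2.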

Additional observations from a re-analysis of the deposited data

How the results depend on the processing

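All 10 called copies kept their direction in every alternative in which they were fitted. Raised copies numbered 17 with DESeq2, 3 without copies within 500 bp of a gene and 2 to 10 with a library left out (2 without wild-type replicate 1, 5 without mutant replicate 2). Fallen copies numbered 0 with total-count scaling, 4 with DESeq2 and 0 to 1 with a library left out. The shares of all TE copies called under these alternatives were not counted. In rnd-1_family-1 there were 1 rise without copies within 500 bp of a gene and 2 to 7 with a library left out. Repeat-family sums that rose numbered 2 with total-count scaling, 2 with no filter, 2 with the strict filter, 4 with DESeq2 and 0 to 2 with a library left out. The share of counts in members differed by -0.886 points with TE counts as denominator, and by 0.0122 to 0.136 with a library left out.

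Deviations from the group means had r of 0.022, 0.13 and 0.26 between samples with the same replicate number. Between samples with different numbers r ran from -0.26 to 0.14 and was mostly below 0. The labels do not say that a number marks a shared culture, so the numbers were not taken to pair samples. Pairing itself was not tested. With the replicate block 9 copies rose, 0 fell and 2 repeat-family sums rose, 7 of the 10 calls being shared.

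Signs turned for some uncalled values near 0. TE_struc_59 was at 0.044 with total-count and 0.026 with nuclear-gene scaling, and the DTM sum at -0.027 without copies that overlap genes. With a library left out TE_struc_59 ran from -0.13 to 0.071, TE_homo_2750 from -0.54 to 0.046, TE_homo_49 from -0.033 to 0.24 and TE_homo_3938 from -0.037 to 0.13. The sums of Mutator ran from -0.46 to 0.00073, DTM from -0.085 to 0.092, the unknown family from -0.039 to 0.12, rnd-1_family-29 from -0.039 to 0.11, hAT from -0.017 to 0.16 and MULE-MuDR from -0.028 to 0.19. The cause was not tested. Low counts limit the tests, with 327 of 598 members untested.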
